A study of Mus musculus with 108 samples.

Results

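The RNA of control mouse oocytes was compared between its polyadenylated part and the whole across meiotic maturation. PolyA libraries were made from RNA captured by its poly(A) tail on oligo(dT) beads, and RiboMinus libraries were primed with random hexamers after removal of ribosomal RNA, with no selection for a tail. For each gene, the log2 ratio of polyA to RiboMinus level in MII eggs was taken, and the same ratio in GV oocytes was subtracted from it. This difference is called the shift below. It is positive where a gene gained share in polyA libraries relative to RiboMinus libraries, and negative where it lost share. Members were chosen by library type, stage and genotype alone, with no measured value, which gave 26 of the 108 samples.

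The groups were 7 polyA GV oocytes from 2 females, 8 polyA MII eggs from 3 females, 8 RiboMinus GV oocytes from 2 females and 3 RiboMinus MII eggs from 1 female. All 26 carried the genotype label control. GV (germinal vesicle) oocytes are arrested in the first meiotic prophase and were held ex vivo in M2 medium, while MII eggs, arrested at the second meiotic metaphase, were taken from the oviduct. The polyA controls after 3 h of culture (8 oocytes, 3 females) have no RiboMinus counterpart and are described by level only. The same shift was computed in 41 oocytes labelled as an oocyte-specific knockout (cKO) of Exosc10, which encodes a nuclear exonuclease of the RNA exosome: 15 polyA GV, 15 polyA MII, 7 RiboMinus GV and 4 RiboMinus MII. The Cre line, strain and age of the females were not given in the sources used here.

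A fully grown oocyte stops transcribing, so the mRNA it holds must serve until the embryonic genome is switched on. Many mRNAs are stored with short tails and are not translated. On meiotic resumption, mRNAs that carry a cytoplasmic polyadenylation element (CPE) near their 3′ end, which is bound by CPEB1, can have their tails extended and are then translated, while many others are deadenylated by the CCR4-NOT complex and its partner BTG4. Capture on oligo(dT) favours longer tails, so a shift can come from a change in tail length, but tails were not measured here and the shift is a proxy.

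Total gene counts were 5535240 to 6700256 per polyA GV library, 6863768 to 8459101 per polyA MII library, 12319658 to 16800566 per RiboMinus GV library and 16220993 to 20447150 per RiboMinus MII library. Libraries of a group correlated with each other at 0.899 to 0.981 (log scale). The 11 oocyte markers summed to between 5380 and 20625 CPM (counts scaled to a common library size) in every library, and 16 granulosa and cumulus cell markers to between 33.4 and 119. These marker sums use unscaled library totals. All other CPM values use library totals scaled by TMM factors, which were 0.756 to 0.821 in polyA MII libraries and above 1 in the other groups. The Exosc10 transcript had a median of 44.3 CPM in control polyA GV oocytes and 0.895 CPM in cKO polyA GV oocytes. Its median was 0.154 CPM in cKO polyA MII eggs, 3.75 CPM in cKO RiboMinus GV oocytes and 1.76 CPM in cKO RiboMinus MII eggs. No spike-in counts were in the gene tables, so each value is relative to the other RNAs of its library, and a change in RNA per oocyte cannot be seen.

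The shift passed the test in 7891 of 15910 genes (edgeR quasi-likelihood test, Benjamini-Hochberg adjusted p under 0.05). It was higher at MII in 3894 genes, 24.5% of those tested, and lower in 3997 genes, 25.1%. Large negative shifts outnumbered large positive ones: 2502 genes were called at least 4-fold lower and 1376 at least 4-fold higher. Among 7480 genes with a mean of 10 CPM or more in both library types, 2861 were called higher and 2172 lower. The ratio of these genes spread out during maturation, with an SD over genes of 0.954 log2 units at GV and 1.57 at MII. Scaling decides where 0 lies. With library totals in place of TMM factors, the median shift of all genes moved from -0.04 to -0.52, and the share of calls that were positive from 49.4% to 33.8%. No gene was called in opposite directions by these scalings.

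Most of the shift lay on the polyA side. Over the genes at 10 CPM or more, the SD of the polyA change was 1.41 log2 units and that of the RiboMinus change 0.689. In polyA libraries 29% of tested genes were higher at MII and 29.2% lower, against 12.9% and 12.1% in RiboMinus libraries. There were 3 RiboMinus MII eggs and 8 polyA MII eggs, so these counts of calls are not on equal terms. Of the genes with a higher shift, 53% were higher in polyA libraries without a called RiboMinus change, and 29% were higher in polyA and lower in RiboMinus libraries. Of those with a lower shift, 58.5% fell in polyA libraries without a called RiboMinus change, and 23.8% fell in polyA while rising in RiboMinus libraries. Among all 4650 genes that fell in polyA libraries, 72.8% also had a lower shift, so most polyA losses were not matched by an equal loss in RiboMinus libraries. Both gave the same direction, each called lower, in 331 of these genes.

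**Figure D1:**
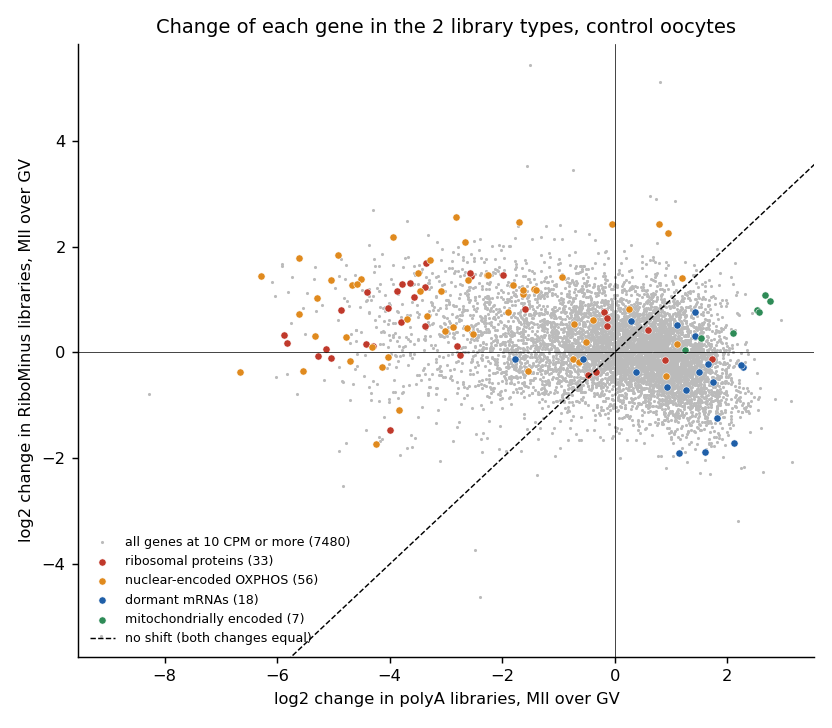
Each point is 1 of the 7480 genes at 10 CPM or more, placed by its log2 change from GV to MII in polyA libraries (horizontal) and RiboMinus libraries (vertical), with 4 gene lists coloured. Points below the dashed line have a positive shift and points above it a negative one. The spread is wider along the polyA axis, with ribosomal protein and oxidative phosphorylation genes reaching far to the left.

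The list of dormant mRNAs, stored in the GV oocyte and activated during maturation, had a median shift of 1.87 log2 units, beside -0.04 over all genes. Of its 18 members 15 were called higher and 1 lower, where 24.5% of all genes were called higher and 25.1% lower. With library totals 12 members were called higher and 3 lower, and with DESeq2 15 and 3. The shares of all genes in these alternatives, against which list counts under them are to be read, were 17.1% higher and 33.4% lower with library totals, 23.8% and 28% with DESeq2, and 15.2% and 14% with counts summed per female. Plat encodes tissue plasminogen activator, a classic dormant mRNA of the mouse oocyte. Its polyA level ranged from 2007 to 2848 CPM at GV (median 2416) and from 5988 to 9633 CPM at MII (median 7213). In RiboMinus libraries it ranged from 1828 to 2950 CPM at GV (median 2188) and was 550, 670 and 619 CPM in the 3 MII eggs. The groups did not overlap in either library type and moved in opposite directions. The 3 RiboMinus MII eggs came from 1 female. In cKO oocytes the RiboMinus change of Plat was -0.22 and did not pass the test (adjusted p = 0.532, edgeR). The shift of Plat was 3.48 ± 0.19 (SE, log2; adjusted p = 8.4e-16, edgeR).

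Mos, the kinase that holds the egg at MII, showed the same pair of opposite changes. Its polyA level was 1469 to 2092 CPM at GV (median 1594) and 2699 to 5306 CPM at MII (median 3465). Its RiboMinus level was 326 to 476 CPM at GV (median 393) and 109, 97 and 115 CPM at MII. The shift was 3.04 ± 0.21 (SE; adjusted p = 1.12e-13, edgeR). Fbxo43 (Emi2), the inhibitor of the anaphase-promoting complex that maintains MII arrest, shifted by 3.07, and Tex19.1 by 3.85. All 4 genes were called lower in RiboMinus libraries, where Plat changed by -1.87, Mos by -1.90, Fbxo43 by -1.24 and Tex19.1 by -1.72. In the whole list 8 members fell in RiboMinus libraries, beside 12.1% of all genes, and 3 rose, beside 12.9% (Dazl, Dcp2 and Cnot6l, named after their values were seen).

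The RiboMinus changes of Btg4 and Ccnb1 were closer to 0. Btg4, the adaptor that brings mRNAs to the CCR4-NOT deadenylase, went from a median of 1344 CPM (1093 to 1622) at GV to 6277 CPM (4895 to 7731) at MII in polyA libraries. In RiboMinus libraries it was 1189 to 1773 CPM at GV (median 1350) and, in the MII eggs, had a median of 1174 CPM and a highest value of 1257 CPM. The RiboMinus values of the stages overlapped, and their change of -0.24 did not pass the test (adjusted p = 0.206, edgeR). Its shift was 2.49 ± 0.18 (SE). For Ccnb1, which encodes cyclin B1, the shift was 1.87 ± 0.17 (SE), with a RiboMinus change of -0.38 (adjusted p = 0.0303, edgeR). The member called lower was Ccno, at -1.64 (named after its value was seen), a cyclin gene.

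**Figure D2:**
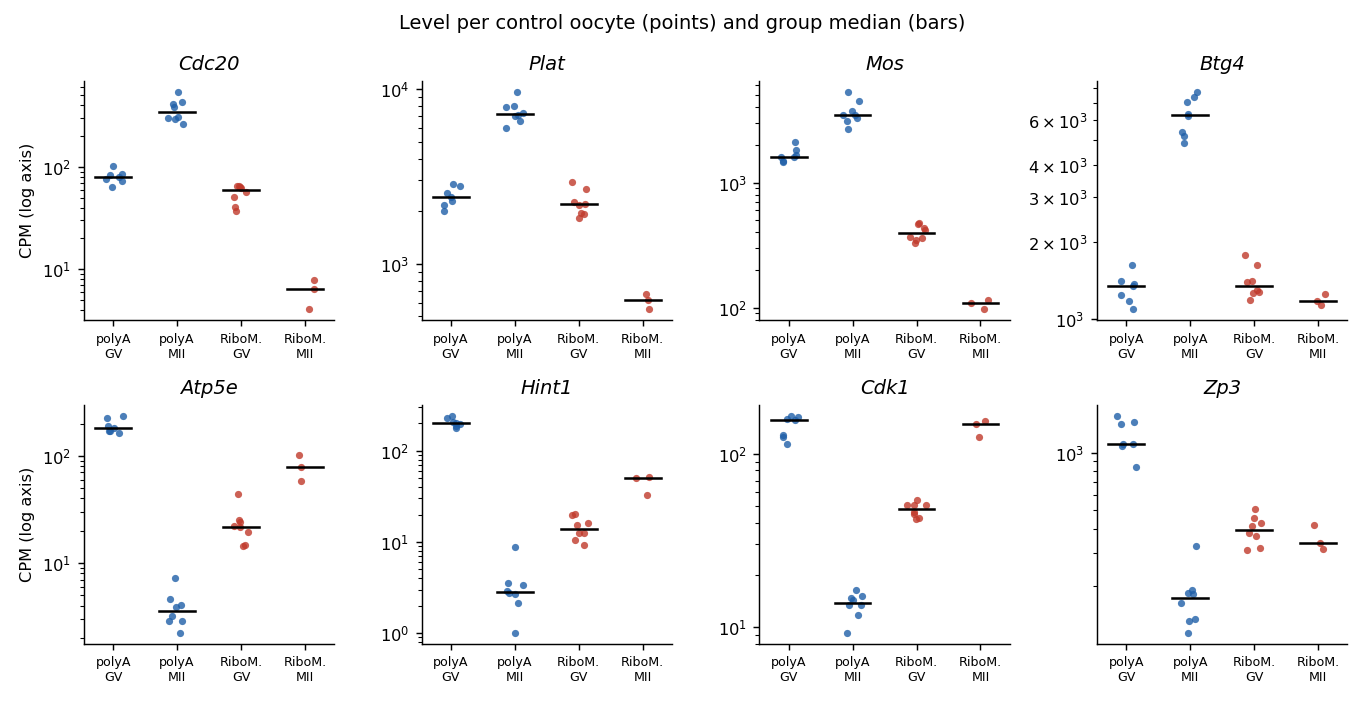
Level in CPM (log axes that do not start at 0 and differ between panels) of 8 genes in each control oocyte, by library type and stage, with bars at group medians. The upper row shows Cdc20 and 3 dormant mRNAs, higher at MII in polyA libraries, and the lower row shows genes whose polyA level fell while the RiboMinus level rose or did not pass the test.

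The largest positive shifts among genes at 10 CPM or more began with Cdc20, at 5.38 ± 0.31 (SE; adjusted p = 2.12e-15, edgeR), which is 41.5-fold. Cdc20 activates the anaphase-promoting complex. Its polyA level was 63.7 to 103 CPM at GV and 265 to 542 CPM at MII, and its RiboMinus level 37 to 64.8 CPM at GV and 7.81, 6.37 and 4.05 CPM at MII. A gain in one library type and a loss in the other thus added up in this gene. The next genes were Fam124a (5.23), Trafd1 (4.46), AU022751 (4.42), Hmgn3 (4.05), Tgds (4.03) and Tubb3 (3.999), then Aamp, Nip7, Tex19.1, Shmt2 and Omt2b between 3.91 and 3.73. Fam124a and Hmgn3 were uneven between oocytes: Fam124a ranged from 0 to 14.8 CPM in polyA GV and from 0 to 96.3 CPM in polyA MII libraries. Summed per female, the adjusted p was 0.232 for Fam124a and 0.0659 for Hmgn3.

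The most negative shifts among genes at 10 CPM or more included several mRNAs for mitochondrial proteins. Ndufa7, a subunit of respiratory complex I, was the lowest at -7.73 ± 0.54 (SE; adjusted p = 1.98e-13, edgeR). Its polyA level fell from a median of 60.8 CPM (50.8 to 92.3) to 0.498 CPM (0 to 2.02), while its RiboMinus level was 3.5 to 10.7 CPM at GV and 12.7, 11.7 and 26.1 CPM at MII. Atp5e, of the ATP synthase, stood at 164 to 237 CPM in polyA GV and 2.23 to 7.31 CPM in polyA MII libraries. In RiboMinus libraries Atp5e was 14.5 to 44.1 CPM at GV and 102, 58.6 and 79.3 CPM at MII, with no overlap, and its shift was -7.40 ± 0.33 (SE). Mrpl33, Hint1, BC048602, Edf1, Chchd2, Tmsb10, Bloc1s1, Rnase6, Cst3 and Atp5j2 lay between -7.58 and -6.77. Rnase6 reached this range by another route, since its polyA change of -1.51 did not pass the test (adjusted p = 0.0542) and its RiboMinus level rose from 0.195 to 2.01 CPM at GV to 29.4, 37.3 and 35.7 CPM at MII.

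The mRNAs for nuclear-encoded oxidative phosphorylation subunits and for cytosolic ribosomal proteins shifted down almost as whole families. Of 80 tested oxidative phosphorylation genes 72 were called lower and 2 higher, with a median shift of -3.81. Of 84 tested ribosomal protein genes 71 were called lower and 2 higher, with a median of -3.80. Among all genes 25.1% were called lower and 24.5% higher. The exceptions called higher were Sdha and Atp5b in the first list and Rpl15 and Rps27l in the second (named after their values were seen). In polyA libraries 72 members of each list fell, beside 29.2% of all genes, with median changes of -2.84 for oxidative phosphorylation and -3.04 for ribosomal proteins. In RiboMinus libraries 44 of the 80 oxidative phosphorylation genes rose and 4 fell, and 24 of the 84 ribosomal protein genes rose and 4 fell, beside 12.9% of all genes that rose and 12.1% that fell. Rps15, a protein of the small ribosomal subunit, went from 17.2 to 27.8 CPM at GV to 0 to 1.16 CPM at MII in polyA libraries. Its RiboMinus level was 26.9 to 44.9 CPM at GV and 49.5, 34.4 and 47.2 CPM at MII, a change of 0.32 that did not pass the test. Ribosomal protein genes have many processed pseudogenes, and reads shared with those may be split or lost in counting.

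The 7 mitochondrially encoded mRNAs with enough counts to be tested, of 13, went the other way. All 7 were called higher, beside 24.5% of all genes, with shifts between 1.21 and 1.80. These transcripts get short tails inside the organelle, and at GV their median log2 ratio of polyA to RiboMinus was -3.94. The polyA level of mt-Nd1 was 204 to 513 CPM at GV and 1886 to 2540 CPM at MII. Its RiboMinus level was 598 to 3440 CPM at GV and 4410, 3426 and 2771 CPM at MII. The RiboMinus stages overlapped, and the rise of 0.81 passed the test (adjusted p = 0.0272, edgeR). In RiboMinus libraries 4 of the 7 rose, beside 12.9% of all genes. With library totals and with both limma voom fits 6 of the 7 were called higher, and with no filter on low counts 8 of 12 were called higher and 1 lower. Among all genes 17.1% were called higher with library totals and 24.4% and 21.6% with the voom fits. With no filter 12% were called higher and 12.3% lower. The median was thus positive for the mitochondrial genes of the respiratory chain and negative for the nuclear ones, with Sdha and Atp5b on the positive side.

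**Figure D3:**
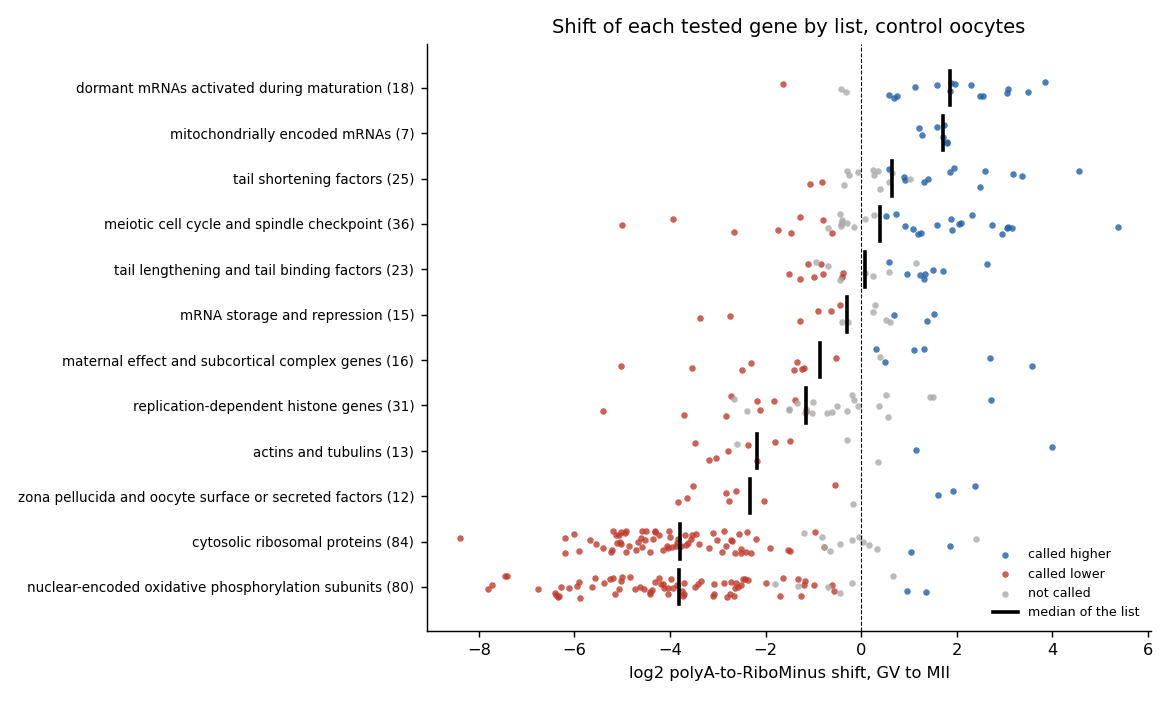
Shift of every tested member (points, log2) in 12 gene lists, ordered by the list's median (black bars), with the number of tested members in parentheses. All 7 mitochondrially encoded and 15 of 18 dormant mRNAs lie to the right of 0, and 78 of 84 ribosomal protein and 77 of 80 oxidative phosphorylation genes to the left.

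Of 12 proteins of the egg surface and secreted factors 8 were called lower, beside 25.1% of all genes, with a median of -2.32. Another 3 were called higher, a share close to the 24.5% of all genes. Zp3, the zona pellucida glycoprotein, fell in polyA libraries from 840 to 1565 CPM (median 1114) to 114 to 324 CPM (median 173). Its RiboMinus level was 310 to 509 CPM at GV and 315, 337 and 417 CPM at MII, which overlapped, and its shift was -2.62 ± 0.26 (SE; adjusted p = 3.42e-10, edgeR). Zp2 behaved in the same manner at -2.76. Fgf8 (-3.83), Cd9, the tetraspanin needed for sperm fusion (-3.65), Oosp2 (-3.52) and Izumo1r, the receptor for sperm Izumo1 (-2.82), were also called lower. Gdf9, an oocyte growth factor, was an exception with a shift of 1.61 ± 0.37 (SE; adjusted p = 0.000477, edgeR), and its polyA level went from 3711 to 4963 CPM up to 7937 to 10182 CPM.

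Of 13 actins and tubulins 8 were called lower, beside 25.1% of all genes, and 2 higher, a share below that of all genes. Tubb4b (-3.18), Tubb2b (-3.03) and Tubb6 (-2.79), all β-tubulins, fell in polyA libraries without a called RiboMinus change. Tubb3, another β-tubulin, shifted by 3.999, with 218 to 313 CPM at GV and 623 to 1024 CPM at MII in polyA libraries and 270 to 419 CPM at GV against 72.9, 63.8 and 71 CPM at MII in RiboMinus libraries. Actb, often used as a reference gene, rose in both library types, by 0.69 in polyA and 0.98 in RiboMinus libraries, and its shift of -0.29 ± 0.22 (SE) did not pass the test (adjusted p = 0.299, edgeR). With library totals it was -0.78 and was called, with an adjusted p of 0.00379, and without the RiboMinus MII egg V1145_3 the shift was 0.02.

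Within the cell cycle list, 18 of 36 members were called higher, beside 24.5% of all genes, and 8 lower, close to the 25.1% of all genes. Among the higher members were Cdc20 and Mad2l1, a spindle checkpoint protein that restrains anaphase (3.15 ± 0.22, SE). Cdk1, the kinase partner of cyclin B1, had a shift of -5.002 ± 0.18 (SE; adjusted p = 2.1e-19, edgeR). Cdk1 fell from 114 to 166 CPM to 9.23 to 16.3 CPM in polyA libraries, and rose from 41.7 to 53.8 CPM to 148, 154 and 125 CPM in RiboMinus libraries. Ccnb1 and Cdk1, the subunits of one kinase, thus had shifts of opposite sign. Birc5 (survivin), of the chromosomal passenger complex, shifted by -3.95, and its RiboMinus level rose from 94.1 to 280 CPM to 760, 645 and 680 CPM. Under library totals 15 members were called higher and 14 lower, beside 17.1% and 33.4% of all genes, and the list's median changed sign from 0.39 to -0.09.

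Factors that shorten tails were called higher in 12 of 25, beside 24.5% of all genes, and lower in 2, and their median was 0.65. With library totals 10 were called higher and 5 lower, with a median of 0.17. Those named were Cnot8, a catalytic subunit of CCR4-NOT (3.37 ± 0.18, SE), Pan2, of the PAN2-PAN3 deadenylase (3.18 ± 0.19), Btg1 (2.59 ± 0.34) and Btg4. Cnot8 rose from 138 to 159 CPM to 601 to 867 CPM in polyA libraries and fell from 70.6 to 111 CPM to 49.6, 36.2 and 44.8 CPM in RiboMinus libraries. Of 23 factors that lengthen or bind tails 8 were called higher and 8 lower, somewhat above the shares of all genes in both directions. These counts were 6 and 11 with library totals, 8 and 10 with DESeq2, and 6 and 3 of 24 with counts summed per female. Tent2 (Gld2), a cytoplasmic poly(A) polymerase, shifted by 2.63, Tent4a by 1.70 and Pabpn1, a poly(A)-binding protein, by 1.502, while Tent5b shifted by -1.52. With counts summed per female, the adjusted p of Tent5b was 0.08. The median of this list was 0.08, and it was negative under each of the other scalings, with -0.41 under library totals and -0.06 under DESeq2 size factors.

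Of the 15 storage and repression factors 6 were called lower and 3 higher, beside 25.1% and 24.5% of all genes. Zar1l (-3.37) and Ybx2, the germ cell Y-box protein known as MSY2 (-2.75), were called lower, and the RAP55 family members Lsm14a (1.53) and Lsm14b (1.39) higher. Among 16 maternal effect genes 9 were called lower and 6 higher, beside the same shares of all genes. The number higher was 4 with DESeq2 and 3 with library totals or counts summed per female. Ooep, of the subcortical maternal complex, went from 1204 to 2620 CPM to 169 to 275 CPM in polyA libraries and from 431 to 812 CPM to 2440, 2223 and 2155 CPM in RiboMinus libraries, a shift of -5.02 ± 0.22 (SE). Npm2, a histone chaperone that acts on sperm chromatin, shifted by -3.53. H1foo, the oocyte linker histone, went from 2896 to 4758 CPM to 11582 to 19149 CPM in polyA libraries and from 1359 to 1949 CPM to 549, 522 and 586 CPM in RiboMinus libraries. Its shift was 3.57 ± 0.21 (SE), and that of Trim28, a corepressor, was 2.703.

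Of 31 replication-dependent histone genes, whose mRNAs normally end in a stem-loop, 9 were called lower and 1 higher, beside 25.1% and 24.5% of all genes, and 25 had a negative value. The number lower was 14 with DESeq2, 16 with library totals, 7 with the female as a random effect in limma voom and, of 45 genes tested, 6 with counts summed per female. Their median log2 polyA-to-RiboMinus ratio was -3.32 at GV. Hist1h2bc (-2.73) was unlike that median, with a ratio of 1.70 at GV. Of 43 small nucleolar and Cajal body RNA genes 1 was called higher and 2 lower, and of 8 other structured RNAs 1 was called lower. Of 12 tested granulosa and cumulus markers 3 were called higher and 1 lower. Cyp19a1, which encodes aromatase, was the highest of these in every group and shifted by 2.11. Ptx3 and Tnfaip6 had no counts in polyA GV libraries, and Lhcgr, Fshr, Inha and Foxl2 had none in polyA MII libraries. The part of other cells in any result was not tested.

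Sequences near the 3′ end are shown because the CPE and the AAUAAA-type polyadenylation signal are the elements through which tails are extended. The last 150 bases of the annotated 3′ untranslated region were searched on the mRNA strand for TTTTAT or TTTTAAT, the common forms of the CPE written as DNA, in the 11558 tested genes whose region was that long. For named genes with a shorter region, all of it was searched. One transcript was taken per gene, from GENCODE M21 on build GRCm38 (mm10), and oocytes may use other 3′ ends. In 8 named genes a CPE and the signal fitted into 1 window of 30 bases, and all 8 had a positive shift. This pairing was searched in named genes only, most of them picked by their shift. No share of all genes stands beside it. In the sequences of these 8 genes the signal and the CPE nearest to it are in capitals, and in AU022751 they overlap. Other matches are left in lower case, as in Cdc20, where another match overlaps the marked one. The region of Cdc20 is 62 bases long, so Cdc20 is not among the genes with a full window.
Cdc20: ttttaTTTTATtttttctAATAAAgttcgt
AU022751: taattaagtaTTTTAATAAAgtaagtttta
Tgds: caatataTTTTAATatATTAAAtgcagatt
Omt2b: ttaacggTTTTATaataAATAAAagtttca
Cnot8: tatgtTTTTAATtttgtaaAATAAAgattg
Pan2: acagcatgTTTTATaaAATAAAagtatttt
Lsm14a: tgtTTTTAATaaaggccatggAATAAAgag
Gdf9: gtggTTTTATgtgacggaagAATAAActgt
They lie in the 3′ untranslated exons at chr4:118432911-118432940 (minus strand), chrX:6081232-6081261 (minus), chr14:118112487-118112516 (minus), chr9:78329560-78329589 (plus), chr11:58118552-58118581 (plus), chr10:128321309-128321338 (plus), chr7:34344661-34344690 (minus) and chr11:53437862-53437891 (plus), in that order. Some genes with a positive shift, such as Aamp, Nip7 and Tex19.1, have a signal but no CPE match in the searched stretch. For comparison, 4 genes with a negative shift and the same make-up are shown, with the signal in capitals.
Atp5e: tgataaattgactatgccAATAAAttaaca
Chchd2: tgattgtgagttaaaaaaAATAAAttggtt
Cdk1: atgtgcctaatggcacggAATAAAaggatt
Npm2: aagctcgcctagggccacAATAAAatttgc
These lie at chr2:174461087-174461116, chr5:129881167-129881196, chr10:69335162-69335191 and chr14:70647310-70647339, all on the minus strand.

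Of 27 named genes with a positive shift and a full window, 16 had a CPE match, and of 22 with a negative shift, 2 did (Tubb2b and Ybx2). Across all genes with a window, a CPE was found in 40% of genes called higher, 13.7% of genes called lower and 23.1% of genes not called, beside 25.7% of all. The match is a description of letters and not evidence that a factor binds. Mos, for example, has no match in its annotated 3′ untranslated region of 126 bases. Among 6562 genes at 10 CPM or more, the median shift was 0.07 with no match, 0.77 with 1, 1.10 with 2 and 1.56 with 3 or more. The percentage called higher went from 33.3% to 53.8%, 66.9% and 78.7% in the same order, and the percentage called lower from 31.6% to 14.9%, 10.4% and 4%. Of all 6562 genes 2628 were called higher and 1739 lower. In polyA libraries the median change by number of matches, in the same order, was 0.16, 0.72, 0.93 and 1.15, and in RiboMinus libraries 0.03, -0.12, -0.19 and -0.35.

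The CPE letters are rich in A and T, and windows with a match were richer in A and T than those without. Genes were divided into 3 equal classes of A and T content. In the lowest class the median shift was 0.52 with a match and -0.40 without, and in the highest class 1.01 and 0.52. Other elements differed less. A TATTTAT match, the AU-rich element, went with a median of 0.64 against 0.28 without, and a TGTANATA match, the Pumilio element, with 0.67 against 0.28. TATTTAT was present in 8.1% of genes called higher and 3.9% of those called lower, beside 6.26% of all, and TGTANATA in 9.08% and 4.98%, beside 6.84% of all.

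Transcript length went with the shift as well. Over 5 equal classes of mRNA length, from the shortest to the longest, the median shift was -1.29, -0.11, 0.31, 0.51 and 0.71. In the shortest class (365 to 1887 bases) 59.5% of genes were called lower, and in the longest 7.96%. Without ribosomal protein and oxidative phosphorylation genes the shortest class still had a median of -1.16. The 6562 genes with a full window were divided again into 5 length classes, with ribosomal protein and oxidative phosphorylation genes kept. In the shortest of these classes, genes with a CPE match had a median of 0.49 and genes without one -1.55. In the longest the medians were 0.99 and 0.60. The libraries were built by different methods, and the part that fragment length plays in this pattern was not tested.

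**Figure D4:**
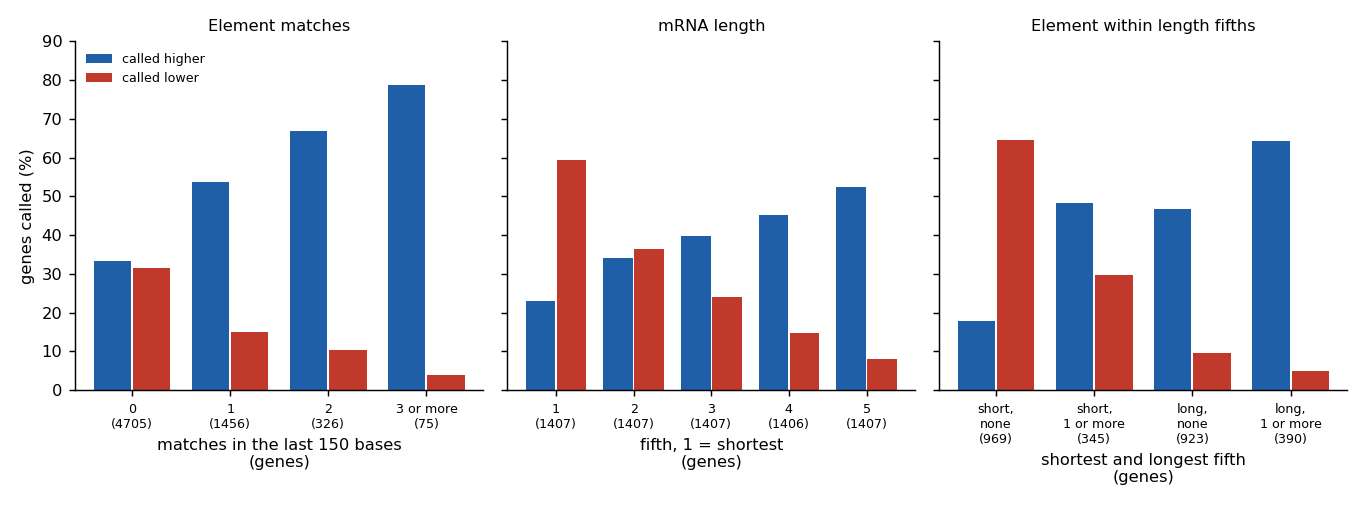
Percentage of genes called higher (blue) and lower (red) by number of CPE matches (left), by mRNA length class (middle) and by CPE match within the shortest and longest class of genes with a full window (right), with gene numbers in parentheses. The share called higher climbs from 33.3% with no match to 78.7% with 3 or more, and the share called lower drops from 59.5% in the shortest class to 7.96% in the longest.

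The polyA level after 3 h of culture lay close to GV for most named genes. The log2 ratio of the mean at 3 h to the mean at GV was within 0.5 of 0 in 67 of 71 genes, with a median of -0.02. On a scale common to the 3 polyA groups, the median of Plat was 2477 CPM at GV, 2732 CPM at 3 h and 6766 CPM at MII, and that of Atp5e 194, 154 and 3.36 CPM. The exceptions were Tmsb10 (-0.97), Hmgn3 (1.38), Fam124a (1.11) and Exosc10 (0.95). Exosc10 stood at 45.2 CPM at GV, 98.7 CPM at 3 h and 89.2 CPM at MII. No test was made of these levels, and the ratio itself is not defined at 3 h.

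The shift was then measured in the cKO oocytes, none of which enter the control values. There 23% of 17208 tested genes were called higher and 22.6% lower. Of 7770 control calls tested in cKO oocytes 63.8% were called with the same sign, and of 7295 cKO calls tested in controls 68%. Of 5148 genes called in both genotypes 4961 had the same sign, and over the 7480 genes at 10 CPM or more the shifts had a Spearman correlation of 0.776, given as a description since genes are not independent. Medians in cKO oocytes were 1.30 for dormant mRNAs, -2.16 for oxidative phosphorylation genes and -2.19 for ribosomal proteins. With library totals these were 0.65, -2.85 and -2.82. Egg surface and secreted factors had a median of 0.16 in cKO oocytes, beside -2.32 in controls, with 5 of 12 called higher and 3 lower. Maternal effect genes had 0.65 in cKO oocytes and -0.87 in controls, and storage factors 0.38 and -0.29. The sign of these 3 cKO medians depended on the scaling, since with library totals they were -0.50, -0.01 and -0.27. For egg surface and secreted factors the cKO median was also negative without polyA GV female V888 (-0.34) and with counts summed per female (-0.02). The control median of storage factors was 0.06 without polyA MII female V836 and 0.15 without RiboMinus GV female V1132. Of the 7 mitochondrially encoded mRNAs 2 were called in cKO oocytes, with a median of 0.55, which was -0.08 with library totals, beside 1.72 in controls. Of the 70 named genes called in controls, 58 were called with the same sign in cKO oocytes.

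The components differed in how well they recurred. The polyA change had a Spearman correlation of 0.878 between genotypes and the RiboMinus change one of 0.305. Within controls the polyA and RiboMinus changes had a Spearman correlation of -0.314 over genes, and within cKO oocytes of 0.176. Genes share their libraries, so these are descriptions with no test. The RiboMinus MII controls all came from 1 female, so stage and female cannot be told apart there, and the polyA side of each control shift has more females behind it. The RiboMinus change in cKO oocytes was 0.01 for Ooep (1.95 in controls), -0.34 for Cdk1 (1.58) and -0.48 for Atp5e (1.78). It was 0.33 for H1foo (-1.56 in controls) and 0.04 for Cnot8 (-1.06). None of these passed the test in cKO oocytes (edgeR). Those of Mos (-0.87), Fbxo43 (-0.44), Rnase6 (4.06) and Atp5j2 (0.82) did, with the sign of controls.

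**Figure D5:**
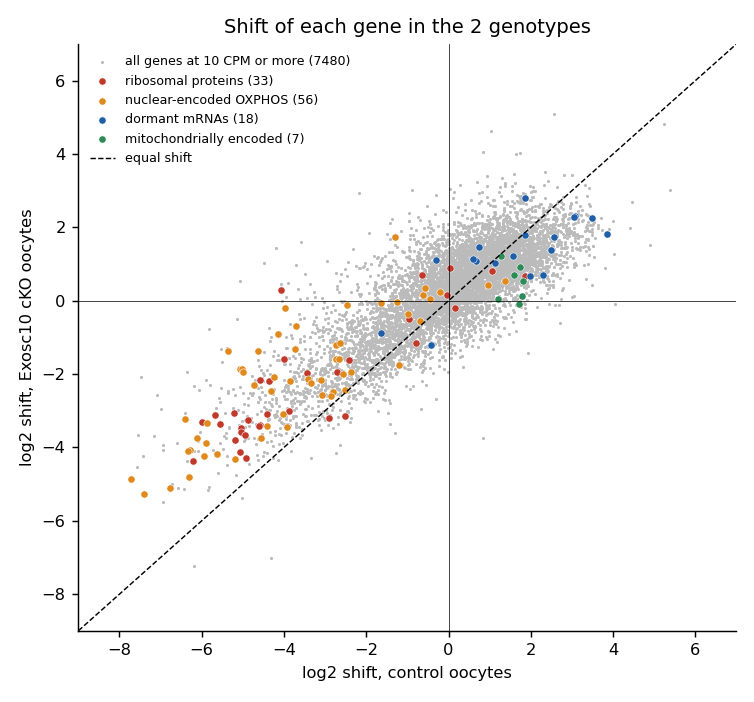
Shift of each of 7480 genes in control (horizontal) and cKO (vertical) oocytes, both in log2 units, with the dashed line marking equal shifts. Genes called in both genotypes mostly share their sign (4961 of 5148), and ribosomal protein and oxidative phosphorylation genes lie mostly above the line.

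The difference of the shift between genotypes was called in 2751 of 18559 genes, 14.8%. The SD over genes of the shift was 1.74 in controls and 1.34 in cKO oocytes. Each difference comes from the fit over all 8 groups, so it is not the exact gap between the shifts. Cdc20 shifted by 3.03 ± 0.30 (SE) in cKO oocytes, a difference of -2.44 from controls (adjusted p = 1.29e-05, edgeR). Plat shifted by 2.26, a difference of -1.33 (adjusted p = 0.00547, edgeR). In polyA libraries Cdc20 rose by 2.47 in cKO oocytes and 2.19 in controls, and Plat by 2.04 and 1.61. In RiboMinus libraries Cdc20 changed by -0.56 in cKO oocytes and -3.18 in controls, and Plat by -0.22 and -1.87. Hint1 shifted by -3.66 in cKO oocytes (difference 3.81, adjusted p = 1.18e-06, edgeR). Its polyA change was -3.64 in cKO oocytes and -5.92 in controls, and its RiboMinus change 0.01 and 1.63. Zp3 had a shift of 0.00 ± 0.36 (SE) in cKO oocytes and a difference of 2.54 (adjusted p = 0.000246, edgeR). Its polyA level still fell in cKO oocytes, by -1.60 beside -2.78 in controls. Its RiboMinus change was -1.60 in cKO oocytes (adjusted p = 0.000858, edgeR) and -0.16 in controls. For Mos the difference of -0.85 did not pass the test (adjusted p = 0.0572), nor for Gdf9 (-0.23, adjusted p = 0.809). These calls depend on oocytes being the replicates. With counts summed per female, the differences of Plat and Zp3 were no longer called, while those of Cdc20 and Hint1 were. In all 115 genes were called in that fit, and with the female as a random effect in limma voom 935. Without the polyA GV control oocytes of female V889 the number was 1814. The named genes were picked for large control shifts, which enter the difference, and 54 of their 55 called differences pointed toward 0.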

How the data were processed

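Raw read counts per gene, 1 table per single-oocyte library, were deposited by the authors. The polyA libraries followed oligo(dT) bead capture and the RiboMinus libraries random hexamer priming, per the labels' protocols. The submitters' processing notes name cutadapt 2.5, FastQC 0.11.8, STAR 2.7.2a, SAMtools 1.9, HTSeq 0.9.1, R 3.5.1, DESeq2 1.24.0 and the build mm10. The strand setting was not given in the sources used here, so reads of overlapping and antisense genes may not be told apart. Rows that name no gene were left out. Reads on no annotated gene made up 5.90% to 12.0% of the 26 control libraries and 10.1% to 12.9% of the 3 h controls. Ambiguous reads, counted apart from these, made up 2.07% to 3.06%.

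The counts were fitted with edgeR 4.0.16 (R 4.3.3, filterByExpr, TMM factors, glmQLFit and glmQLFTest, no covariate) over the 4 control groups, and likewise over the 4 cKO groups and all 8 groups for the difference. Tests are two-sided, with Benjamini-Hochberg adjusted p under 0.05. The procedure was also run on simulated counts. These treated oocytes as independent, with no effect of the female, so they give no check on that. Alternatives used DESeq2 1.42.0, limma 3.58.1, other scalings and filters, counts summed per female, and left-out females or oocytes. Python 3.11.15, numpy 2.4.6, pandas 2.3.3, scipy 1.17.1 and matplotlib 3.10.9 made the tables and figures.

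Named genes are the 12 largest shifts in each direction among called genes at 10 CPM or more (without predicted and mitochondrial genes), up to 4 called genes of each list with that level and the largest absolute shift (none where no called gene reached it), and Mos, Plat, Ccnb1, Btg4, Actb, Zp3, Gdf9 and Exosc10. The comparison, members and lists were chosen with earlier results of these data known. Oocytes are the replicates of the main fit. Oocytes of 1 female are not independent, so p-values may be too small.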

Additional observations from a re-analysis of the deposited data

Results flagged for a closer look

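Of 213 groups of oocytes and named genes examined for 1 oocyte far from the others (Dixon's test, which chance passes in about 1 in 20 groups), 10 were found. RiboMinus GV oocyte V1133_1 accounts for 5 of them. It had 15.6 CPM of Mrpl33 (4.05 to 8.26 in the others), 17.5 CPM of BC048602 (7.49 to 11.7), 44.1 CPM of Atp5e (14.5 to 25.3), 21.3 CPM of Tmsb10 (9.51 to 14.5) and 258 CPM of Tent5b (382 to 435). In polyA MII eggs, V853_3 had 8.81 CPM of Hint1 (1.01 to 3.52 in the others) and 1.16 CPM of Rps15 (0 to 0.508), and V853_4 had 3.31 CPM of Mrpl33 (0 to 0.721). Egg V836_2 had 220 CPM of Oosp2 (102 to 149) and 324 CPM of Zp3 (114 to 192).

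The shift differed between genotypes in 55 named genes (edgeR test of the difference, adjusted p under 0.05). These genes were chosen for their control shift, a term of the difference, so a difference toward 0 is not independent of that choice, and 54 of the 55 pointed that way. Among genes with a positive control shift, the log2 difference (cKO minus control) was called for Hmgn3 (-4.24), Shmt2 (-3.01), Tgds (-2.86), Btg1 (-2.80), AU022751 (-2.54), Cdc20 (-2.44), Nip7 (-2.15), Tex19.1 (-2.12), Aamp (-2.05), H1foo (-1.97), Omt2b (-1.92) and Tubb3 (-1.92). Smaller negative differences were called for mt-Nd1 (-1.89), Trafd1 (-1.86), mt-Nd2 (-1.76), Pan2 (-1.52), Plat (-1.32), Tent2 (-1.24), Btg4 (-1.22), Cnot8 (-1.13), Lsm14b (-1.11), Mad2l1 (-1.03), Fbxo43 (-0.85) and Tent4a (-0.81). Among genes with a negative control shift, it was called for Chchd2 (4.43), Tmsb10 (3.93), Cd9 (3.87), Hint1 (3.81), Edf1 (3.39), Hist1h2bc (3.39), Ooep (3.11), Cox7b (3.11), BC048602 (3.09), Mrpl33 (2.96), Cst3 (2.90), Birc5 (2.87), Ndufa7 (2.79), Fgf8 (2.79) and Bloc1s1 (2.78). Smaller positive differences were called for Figla (2.73), Rpl39 (2.61), Zp3 (2.54), Rpl35 (2.45), Cdk1 (2.40), Oosp2 (2.31), Zp2 (2.13), Rpl36al (2.10), Atp5e (2.01), Npm2 (1.84), Izumo1r (1.68), Ybx2 (1.64), Atp5j2 (1.57), Tubb2b (1.498) and Zar1l (1.46). The exception was Ccnb1, whose positive shift was larger in cKO oocytes by 0.85. With counts summed per female 12 of the 55 were still called: Cdc20, AU022751, Tgds, Shmt2, Hint1, Chchd2, Tmsb10, Cd9, Birc5, Ooep, Npm2 and Cox7b. With the female as a random effect in limma voom 34 were still called.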

How the results depend on the processing

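The number of control genes called was 7891, and between 5841 (counts summed per female) and 8240 (DESeq2) under the other tools, scalings and filters. Leaving out each female, or each RiboMinus MII egg, gave 6848 to 8222 genes called, 3509 to 4021 higher and 3339 to 4201 lower. Among 1416 values of named genes over up to 20 alternatives, 1411 kept their direction and side of the threshold. With counts summed per female, Fam124a (4.84, adjusted p = 0.232), Hmgn3 (4.16, 0.0659) and Tent5b (-1.37, 0.08) no longer passed. Actb passed with library totals (-0.78) and ranged from -0.435 to 0.02 with a female or egg left out, changing sign without RiboMinus MII egg V1145_3; the cause was not tested. In cKO oocytes 7840 genes were called, 2773 with counts summed per female and 4842 with the female as a random effect, and 6467 to 8144 with a female or oocyte left out. The genotype difference was called in 2751 genes, in 115 with counts summed per female, in 935 with the female as a random effect, and in 1814 to 3269 with a female or oocyte left out, the lowest without control polyA GV female V889. Sums per female leave fewer samples, and RiboMinus MII controls then hold 1, assumed to vary like the other groups. With library totals the positive share of cKO calls went from 50.5% to 23.7%, and with DESeq2 size factors to 40.1%. No paired analysis was possible because, with the rRNA libraries made from the RiboMinus oocytes set aside, each oocyte gave either a polyA or a RiboMinus library and each female gave oocytes of 1 stage and library type. P-values measure the spread between oocytes, and no tail lengths or spike-ins set an absolute scale.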

Other observations

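A minority of shifts lay on the RiboMinus side alone, with no called change in polyA libraries. At 10 CPM or more there were 111 such genes with a higher and 231 with a lower shift. The genes named here were chosen after their values were seen. Among the higher ones Rfwd3, an E3 ubiquitin ligase, had mean polyA levels of 44.9 CPM at GV and 48 CPM at MII and mean RiboMinus levels of 43.3 and 10.9 CPM, a shift of 2.08. Atg2b, an autophagy gene, shifted by 1.96 and Dync2h1, a dynein heavy chain, by 1.89. In cKO oocytes these 3 shifts were 1.70, 2.02 and 1.28. Of the 8 largest such positive shifts, 4 were called with the same sign in cKO oocytes (Rfwd3, Atg2b, Dync2h1 and Gm26566). The other 4 did not pass the test there (edgeR): Kdm3b (1.09, adjusted p = 0.222), Pds5a (0.34, 0.63), Tril (1.58, 0.104) and Slc25a26 (0.49, 0.262).

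Among the lower ones Pnpla3, a lipid droplet protein, went from 0.822 to 29 CPM in RiboMinus libraries, against 82.6 and 144 CPM in polyA libraries, with a shift of -4.31 in controls and -7.01 in cKO oocytes. Gnrh1 shifted by -2.70 and by -1.82 in cKO oocytes. Ndufa4, a respiratory chain protein, shifted by -2.47 in controls, and its cKO value of -0.12 did not pass the test (edgeR adjusted p = 0.82). Tbca, a tubulin-folding cofactor, and Gnas, the stimulatory G protein, had shifts of -2.46 and -2.07 in controls and of 0.66 and 0.91 in cKO oocytes. Of the 8 largest such negative shifts, 4 were called with the same sign in cKO oocytes (Rnase6, Pnpla3, Gnrh1 and Commd8). The opposite sign was called in 3, all near the threshold (edgeR): Tbca (adjusted p = 0.029), Gnas (0.0468) and Gm20721 (0.0362). With library totals the median cKO shift of all genes moved from -0.08 to -0.73. RiboMinus MII controls came from 1 female, and the part of that female in these values was not tested.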
